A study of Mus musculus with 16 samples.

Results

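Wide H3K27me3 domains are stretches of chromatin of 10 kb or more that carry histone H3 trimethylated at lysine 27, the mark written by Polycomb repressive complex 2. They were obtained by merging overlapping or touching peaks of the 4 H3K27me3 peak lists called against whole-cell extract on chromosomes 1 to 19, and by keeping merged regions of at least 10000 bp. This gave 490 domains among 23597 merged H3K27me3 regions, or 2.08% of them. They spanned 7.79 Mb of the 56.2 Mb that all merged regions covered, or 13.8%. Because the domains were chosen on the H3K27me3 lists, all H3K27me3 values in them are a description and were not tested.

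The cells were immortalized murine mesenchymal stem cell (MSC) lines on the C57BL/6 strain, cultured as monoclonal lines, so that a line stands for 1 clone. The labels give the genotypes as Dicer f/f (WT, floxed alleles left in place) and Dicer -/- (KO, both alleles deleted), with no further treatment, agent or age. Dicer is the nuclease that cuts microRNA precursors into mature microRNAs. H3K27me3, H3K4me3 and H3K36me3 were each profiled by chromatin immunoprecipitation and sequencing (ChIP-seq) in 2 replicates of each genotype, which makes 12 libraries. Nothing in the labels says that replicates came from separate cultures, so their spread may be technical. The lists name no genes, and the cell type could not be checked against marker genes here.

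Polycomb repressive complex 2 both writes H3K27me3 and binds it, which lets the mark spread from a starting site over neighbouring nucleosomes. Wide domains are known in many cell types over clusters of silent developmental regulator genes, the Hox clusters being the textbook example. H3K4me3 marks promoters, and where it lies inside H3K27me3 chromatin the promoter is called bivalent, a state described for genes that are silent but can be switched on. H3K36me3 is laid down over the bodies of transcribed genes, and it hinders the enzyme of Polycomb repressive complex 2.

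The 4 H3K27me3 lists were of very unequal size. KO replicate 1 held 698 peaks over 0.729 Mb, KO replicate 2 held 17471 over 34.4 Mb, WT replicate 1 held 2533 over 4.64 Mb, and WT replicate 2 held 14523 over 37.3 Mb. Both replicate 1 lists thus stood apart from both replicate 2 lists, and the gap between replicates was larger than that between genotypes. Read depth was not used here and is unknown for every library. In bulk chromatin, fewer cells with a mark and less of the mark per cell cannot be told apart. Values are therefore given per library, and comparisons within replicate 1 and within replicate 2 are given beside the pooled ones.

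Most wide domains were only moderately above the minimum. Their median width was 13613.5 bp (interquartile range 11422.5 to 18098.2), against 1477 bp for all merged regions. Of the 490, 294 were 10 to 15 kb wide, 85 were 20 kb or more, and 20 were 30 kb or more. The widest reached 110002 bp.

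Widths ran on without a break across the limit of 10000 bp. The narrowest domains were chr6:87324915-87334932 with 10018 bp, chr17:34807290-34817318 with 10029 bp and chr19:29052667-29062710 with 10044 bp. KO replicate 2 covered 7927, 5074 and 8992 bp of them, and WT replicate 2 covered 9152, 10029 and 8557 bp. Just below the limit lay chr19:44580919-44590905 with 9987 bp, chr8:37374232-37384219 with 9988 bp and chr4:126899337-126909325 with 9989 bp. KO replicate 2 covered 9150, 9988 and 5691 bp of these, and WT replicate 2 covered 9915, 0 and 9989 bp. All positions are given 1-based on mouse build mm9.

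The outlines of the domains came mainly from WT replicate 2. Of the 980 outer edges, this library set 731 (74.6%), KO replicate 2 set 245 (25%), WT replicate 1 set 3 and KO replicate 1 set 1. A single WT replicate 2 peak made up the whole of 276 domains (56.3%), and a single KO replicate 2 peak the whole of 37. In 434 domains some library had a peak of 10 kb or more, and 56 domains (11.4%) reached 10 kb only through merging. Taken alone, the lists gave 0 regions of 10 kb or more in KO replicate 1, 117 in KO replicate 2, 26 in WT replicate 1 and 387 in WT replicate 2. A high cover in WT replicate 2 is therefore built into the choice of domains.

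H3K27me3 peaks of KO replicate 1 covered 3.78% of the total domain length, those of KO replicate 2 covered 63.4%, those of WT replicate 1 covered 33.6% and those of WT replicate 2 covered 94.0%. The lowest and the second highest value both belonged to KO, so the genotypes overlapped. Within replicate 1 the log2 ratio of KO to WT was −3.15, and within replicate 2 it was −0.57. The pooled difference of −1.86 compares with standard deviations of 2.88 in KO and 1.05 in WT on the log2 scale (n = 2 each). Without KO replicate 1, whose domains were mostly bare, the pooled ratio was 0.17, on the opposite side of 0.

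The replicate 1 lists, although short, were concentrated in the wide domains. Of its own covered length, KO replicate 1 had 40.4% in domains and WT replicate 1 had 56.4%, while KO replicate 2 had 14.4% and WT replicate 2 had 19.6%. Of 13 WT replicate 1 peaks with a score of at least 3100, all 13 lay in domains. Of the 887 such peaks of WT replicate 2, 343 (38.7%) did. KO replicate 2 had 27 such peaks, 18 of them in domains, and KO replicate 1 had 0. Score scales of different lists may not be comparable, so these counts describe each list by itself.

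Domain by domain, 140 (28.6%) met at least 1 peak of KO replicate 1, 470 (95.9%) of KO replicate 2, 389 (79.4%) of WT replicate 1 and 485 (99.0%) of WT replicate 2. The median domain was covered to 0% in KO replicate 1, 70.6% in KO replicate 2, 27.2% in WT replicate 1 and 100% in WT replicate 2. At least 90% of the domain was covered in 0, 116, 1 and 412 domains in the same order. KO replicate 2 was spread over the whole range from bare to fully covered domains, while WT replicate 2 was close to full cover almost everywhere.

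**Figure D1:**
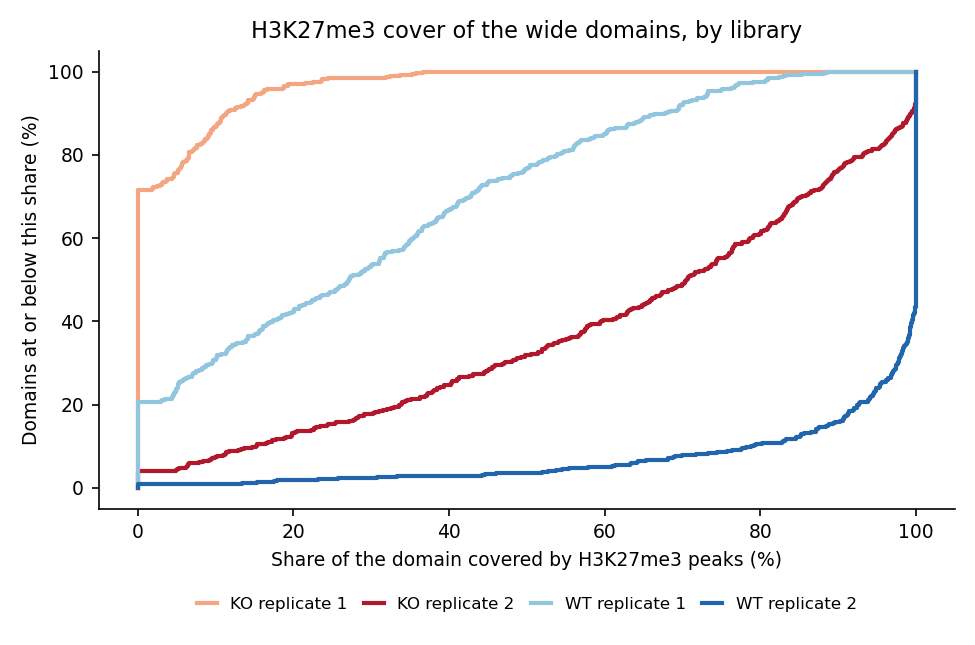
Cumulative share of the 490 wide domains (vertical axis, %) at or below a given covered share of their length (horizontal axis, %), with 1 line per H3K27me3 library. The WT replicate 2 line stays low until almost full cover, the KO replicate 2 line rises evenly, and KO replicate 1 starts with most domains at 0.

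Which libraries listed a domain followed the size of the lists. The most frequent pattern was a peak in every library but KO replicate 1, in 256 domains (52.2%). All 4 libraries had a peak in 117 domains (23.9%), which were wider, with a median of 17315 bp and 43 of them at 20 kb or more. Only the replicate 2 libraries had a peak in 72 domains (14.7%). Both WT libraries and neither KO library had one in 14 domains. A single domain was listed by both KO libraries and neither WT library.

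The lists were largely nested. Of the bases that WT replicate 1 covered in domains, 99.9% were also covered by WT replicate 2 and 72.0% by KO replicate 2. KO replicate 1 shared 79.9% of its bases with WT replicate 1, 95% with KO replicate 2 and 96.5% with WT replicate 2. Of the KO replicate 2 bases, 90.6% were also covered by WT replicate 2, whereas 61.1% of the WT replicate 2 bases were covered by KO replicate 2.

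Within each replicate number, most domains had more H3K27me3 cover in WT. In replicate 1, WT covered more of 379 domains, KO covered more of 31, and neither covered any of 80. In replicate 2, WT covered more of 396 and KO covered more of 94. The direction depended on which libraries were set against each other, since KO replicate 2 covered more than WT replicate 1 in 376 domains and less in 109. In the 485 domains that WT replicate 2 listed, the median ratio of KO replicate 2 to WT replicate 2 was 0.707 (interquartile range 0.403 to 0.920). It was below 0.5 in 155 domains and above 1 in 89.

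Cover in KO replicate 2 was level across domain widths, while cover in both replicate 1 lists was higher in wider domains. KO replicate 2 covered 62.4% of the length of domains of 10 to 15 kb and 59.7% of those of 30 kb or more. WT replicate 1 went from 23.5% to 54.4%, KO replicate 1 from 2.83% to 6.76%, and WT replicate 2 from 92.2% to 99.8%. In regions of 5 to 10 kb, below the limit, the shares were 1.60% for KO replicate 1, 59.7% for KO replicate 2, 12.7% for WT replicate 1 and 84.0% for WT replicate 2. The replicate 2 libraries thus lay further apart in wide domains than in regions below the limit. Width itself was set mostly by WT replicate 2 and does not give an independent scale.

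**Figure D2:**
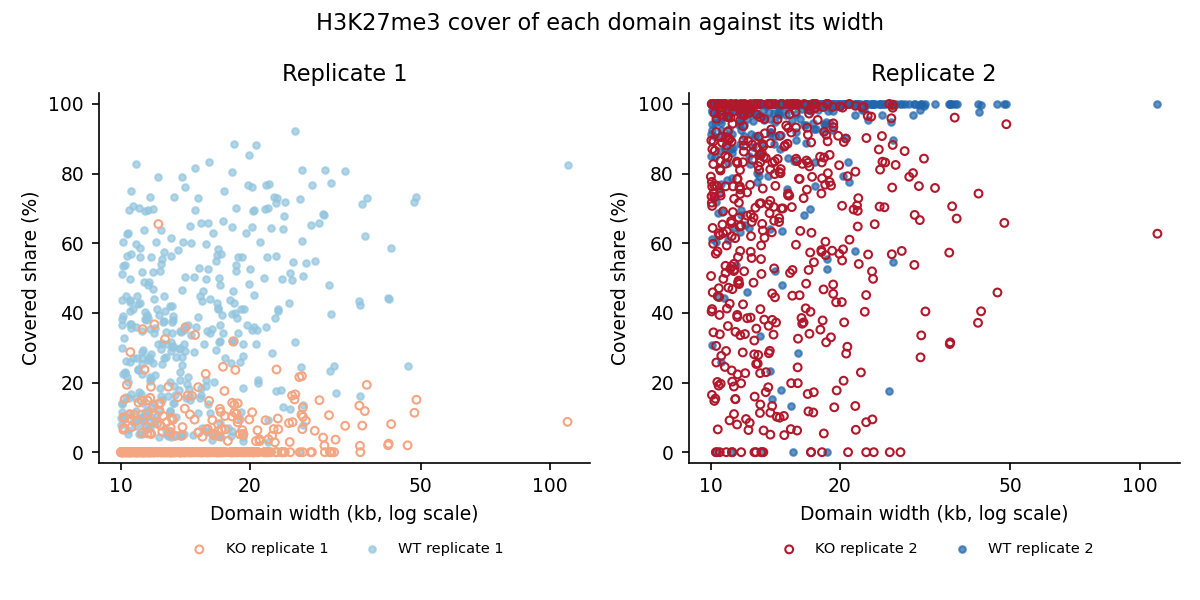
Covered share of each wide domain (vertical axis, %) against its width (horizontal axis, kb, log scale), in replicate 1 (left) and replicate 2 (right), with open circles for KO and filled circles for WT. WT replicate 2 points crowd near 100% at all widths, and KO replicate 2 points fill the range below.

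In these domains WT replicate 2 peaks tended to run through unbroken, and the other lists were more often broken up. WT replicate 2 set most of the outlines, so its few and long peaks here are partly built into the choice of domains. In H3K27me3 regions of 5 to 10 kb, KO replicate 2 had 1.43 peaks per listed region and WT replicate 2 had 1.22. The mean number of peaks per listed domain was 1.68 in KO replicate 1, 2.60 in KO replicate 2, 2.69 in WT replicate 1 and 1.34 in WT replicate 2. A single peak was present in 85 of 140, 134 of 470, 119 of 389 and 378 of 485 listed domains in that order. The genotypes overlapped, with KO below WT in replicate 1 (log2 ratio −0.68), KO above WT in replicate 2 (0.95), and a pooled value of 0.14 whose sign turned to −0.41 without WT replicate 2. Standard deviations on the log2 scale were 0.45 in KO and 0.71 in WT (n = 2 each).

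Fragments differed in size as well as number. The median width of peaks in domains was 1063 bp for KO replicate 1, 2401 bp for KO replicate 2, 1500.5 bp for WT replicate 1 and 10883 bp for WT replicate 2. Over the whole lists the medians were 902.5, 1425, 1192 and 1490 bp in that order, so the replicate 2 lists as a whole were close. Gaps between peaks of the same domain numbered 95, 753, 659 and 167, with median lengths of 1625, 464, 535 and 239 bp. In the 2 libraries with the most gaps, the longest peak held a median of 64.9% (KO replicate 2) and 67.6% (WT replicate 1) of the covered length. KO replicate 2 and WT replicate 1 were thus broken to a like degree despite the different share they covered. At 30 kb or more, they had 6.10 and 6.70 peaks per listed domain, against 1.15 in WT replicate 2.

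What KO replicate 2 left uncovered lay mainly at the ends of domains. Of 2852.4 kb without a peak in this library, 60.1% lay between a domain's outer edge and the first or last peak, 28.8% in gaps between peaks and 11.1% in domains with no peak. At 694 of 930 edges (74.6%) where both replicate 2 libraries listed the domain, the KO edge lay inside the WT edge. The median inset over all these edges was 877.5 bp. WT replicate 2 set most of the outlines, so an inset of the other libraries is partly fixed by the choice of domains.

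Scaled to a common length and divided into 20 bins, the domains showed the highest H3K27me3 cover in the middle in every library. Mean cover was 4.66% in the 12 inner bins and 1.26% in the 8 outer bins in KO replicate 1, and 70.3% and 52.9% in KO replicate 2. It was 39.3% and 14.8% in WT replicate 1, and 95.8% and 89.4% in WT replicate 2. The centres of the domains were the part that the short lists also picked up. Of the 980 outer edges, however, WT replicate 1 set 3 and KO replicate 1 set 1. The fall of their cover towards the ends is therefore partly built into the choice of domains.

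**Figure D3:**
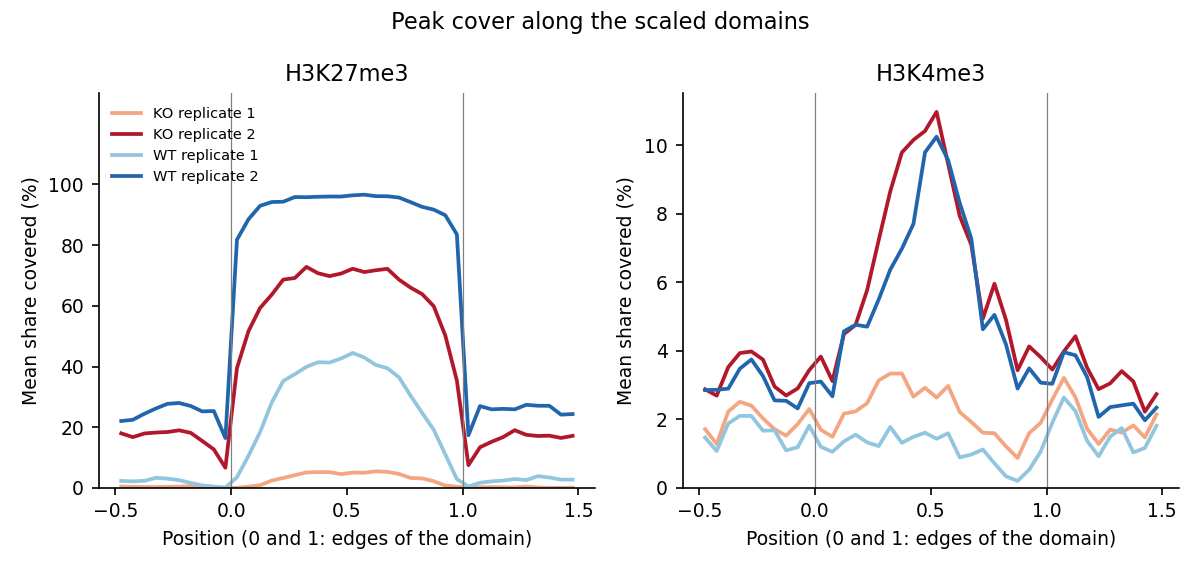
Mean share of each bin covered by H3K27me3 peaks (left, %) and H3K4me3 peaks (right, %) along the 490 domains scaled from 0 to 1, with flanks on either side, 1 line per library. H3K27me3 is highest in the interior in all 4 libraries, and H3K4me3 in the replicate 2 libraries peaks near the centre.

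The widest domain, chr11:96109987-96219988, was a single peak of 110002 bp in WT replicate 2. In it, KO replicate 1 had 7 peaks covering 9577 bp, KO replicate 2 had 15 covering 69015 bp, and WT replicate 1 had 23 covering 90594 bp. Here the shorter WT list covered more than KO replicate 2, in contrast to the total over all domains. The bare part of KO replicate 2 was mostly a single stretch in the left part of the domain, from 16.9 to 50.2 kb. A single WT replicate 1 peak ran from 17.01 to 50.27 kb, and 4 of the 7 KO replicate 1 peaks also lay there. H3K4me3 peaks numbered 1 in KO replicate 1, 3 in KO replicate 2, and 1 each in WT replicates 1 and 2.

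The next widest, chr11:96022321-96071225 (48905 bp), lay beside it and behaved differently. KO replicate 1 covered 7365 bp, KO replicate 2 covered 46058 bp, WT replicate 1 covered 35876 bp and WT replicate 2 covered all 48905 bp. KO replicate 2 was thus almost complete here, and no library had an H3K4me3 peak inside. The domain chr8:123569612-123617987 (48376 bp) had 5476, 31852, 34774 and 48376 bp covered in the same order of libraries. KO replicate 2 and WT replicate 1 were close to each other in it.

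**Figure D4:**
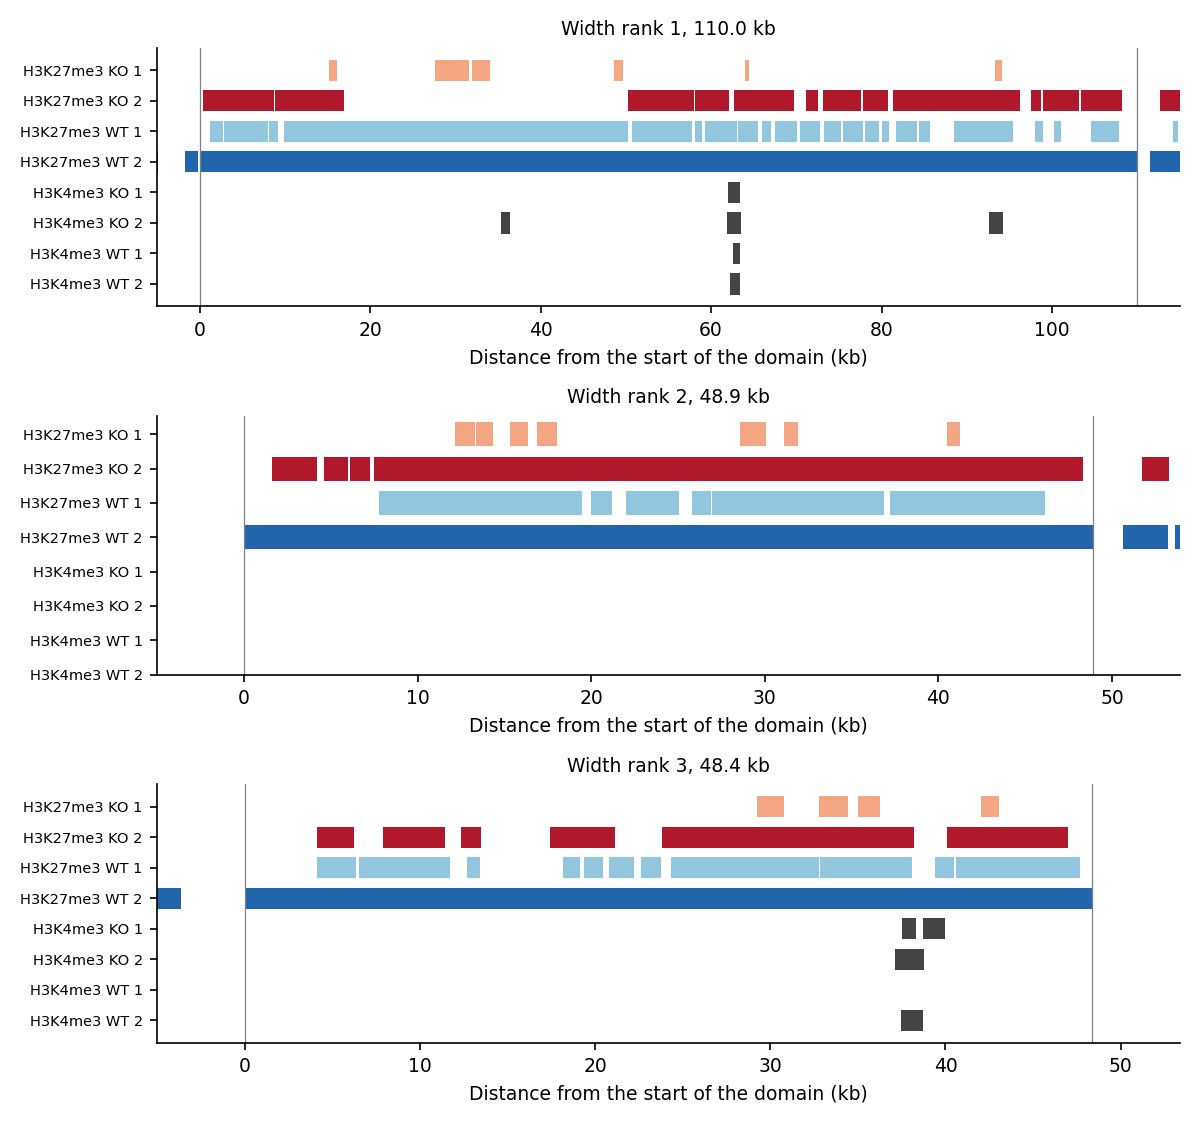
Peaks of the 4 H3K27me3 and 4 H3K4me3 libraries in the 3 widest domains, against distance from the start of the domain (kb). Grey lines are the domain edges, bars are peaks as deposited by the authors, and a single WT replicate 2 bar fills each domain.

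Among the other 7 of the 10 widest domains, KO replicate 2 ranged from partial to nearly full cover. In chr19:44869905-44916530 (46626 bp) the covered lengths were 917 bp for KO replicate 1, 21379 bp for KO replicate 2, 11531 bp for WT replicate 1 and 46626 bp for WT replicate 2. In chr6:83632731-83675428 (42698 bp) they were 3444, 17276, 25023 and 42525 bp. In chr14:63848583-63890588 (42006 bp) they were 843, 15606, 18579 and 42006 bp. These 3 domains had the lowest KO replicate 2 share of the 10, and in the last 2 of them WT replicate 1 exceeded KO replicate 2.

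KO replicate 2 was fuller in chr2:147844517-147886636 (42120 bp), with 31278 bp against 41184 bp in WT replicate 2, and in chr19:44805439-44842899 (37461 bp), with 25136 bp against 37461 bp. It reached 25813 of 36560 bp in chr3:128896884-128933443 and 35613 of 37068 bp in chr5:139999585-140036652. WT replicate 1 covered 18477, 27363, 26033 and 23038 bp of these 4, and KO replicate 1 covered 1026, 7241, 2795 and 4377 bp. KO replicate 1 had peaks in each of the 10 widest domains.

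Some domains were bare in KO replicate 2. There were 20 with WT replicate 2 peaks and no KO replicate 2 peak, of which 14 were listed by both WT libraries and neither KO library. The first 5 in genome order were chr2:33554174-33565387, chr2:70397745-70408982, chr3:34557625-34568506, chr4:138006955-138017308 and chr4:139312754-139329895. WT replicate 2 covered each of these in full, with 11214, 11238, 10882, 10354 and 17142 bp, and WT replicate 1 covered 1138, 2847, 1693, 5841 and 0 bp. KO replicate 1 had no peak in any of the 5. The 14 domains lay on 9 chromosomes, 3 of them on chromosome 9, and 5 were 20 kb or wider.

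The reverse was rare. WT replicate 2 had no peak in 5 domains, and in these KO replicate 2 made the whole domain. They were chr3:121667817-121678036 (10220 bp), chr6:50523012-50541730 (18719 bp), chr15:102592597-102603736 (11140 bp), chr15:102615473-102631007 (15535 bp) and chr18:88945357-88958435 (13079 bp). KO replicate 1 covered 1555 bp of the first, 922 bp of the last and 0 bp of the other 3. WT replicate 1 covered 588 bp of the last and none of the others.

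In a stretch of chromosome 15, KO replicate 2 covered more than WT replicate 2 in neighbouring domains. Among them, chr15:102517572-102528937 (11366 bp) had 2695 bp covered by KO replicate 1 and 11339 bp by KO replicate 2. WT replicate 1 covered 4568 bp of it and WT replicate 2 covered 7331 bp. Its difference calls, described below, were WT-higher in both replicates, and it was named after its values were seen. Besides this domain and the pair named above, chr15:102725298-102751380 (26083 bp) had 5625 bp covered by KO replicate 1, 26083 bp by KO replicate 2, 0 bp by WT replicate 1 and 4574 bp by WT replicate 2. Both KO libraries exceeded both WT libraries in this domain. Its H3K4me3 cover was 785 bp for KO replicate 1, 2164 bp for KO replicate 2, 1704 bp for WT replicate 1 and 3159 bp for WT replicate 2. Within each replicate number H3K4me3 was thus the wider in WT and H3K27me3 the wider in KO, whereas across numbers the H3K4me3 lengths overlapped.

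The authors also deposited a difference list for each library. It was read here as peaks called against the library of the same mark and number from the opposite genotype. The sources used here do not name its control, so the direction of each call rests on that reading. A WT-higher H3K27me3 peak of replicate 1 met 294 domains, against 4.06% of all merged regions. The replicate 2 list met 349 domains, against 20.4% of regions, and both lists met 248 domains, against 3.8%. A KO-higher peak met 5 domains in replicate 1 (0.411% of regions), 5 in replicate 2 (13.8%) and 2 in both (0.174%). The domains were chosen by width on the same libraries, with outlines set mostly by WT replicate 2, and wide regions offer more room for a peak. Nothing is therefore read from the difference to all regions. Each of the 10 widest domains met a WT-higher peak of replicate 1. Several of them met none of replicate 2, among them chr11:96109987-96219988 and chr19:44869905-44916530.

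The 2 domains KO-higher in both replicates were chr15:102592597-102603736 and chr18:88945357-88958435. In the former, KO replicate 1 had no peak against whole-cell extract, although its difference list had one. The KO-higher calls of only 1 replicate included chr15:102725298-102751380 in replicate 1 and chr15:102615473-102631007 in replicate 2.

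H3K4me3 islands, meaning merged H3K4me3 regions that overlap a domain, were present in 232 of the 490 domains (47.3%, 95% Wilson interval 43.0 to 51.8, counting error only). There were 322 islands, 1.31% of the 24560 merged H3K4me3 regions. A single island lay in each of 165 domains, 2 in each of 48 and 3 or 4 in each of 19, while 258 domains had none. Of the 322, 284 (88.2%) lay wholly inside a domain and 38 crossed an edge. Islands were somewhat narrower than H3K4me3 regions at large, with a median of 1594 against 1849 bp.

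Domains met H3K4me3 more often than narrower regions, as longer regions will, but islands were not denser in them. H3K4me3 was met by 31.7% of the 1748 H3K27me3 regions of 5 to 10 kb, by 40.1% of the domains of 10 to 15 kb and by 72.3% of those of 20 to 30 kb. Of the 20 domains of 30 kb or more, 55% met it. Per megabase there were 41.3 islands in domains and 51.3 in regions of 5 to 10 kb.

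Counted by library, KO replicate 1 had 114 H3K4me3 peaks in domains, KO replicate 2 had 292, WT replicate 1 had 81 and WT replicate 2 had 252. These peaks lay in 95 (19.4%), 212 (43.3%), 69 (14.1%) and 196 (40%) domains. They covered 164, 497, 85.0 and 416 kb of domain length. KO was above WT within each replicate number, but the replicates of a genotype differed more than the genotypes did.

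For covered H3K4me3 length, KO exceeded WT by a mean log2 ratio of 0.60, with 0.95 in replicate 1 and 0.26 in replicate 2. Standard deviations were 1.13 in KO and 1.62 in WT (n = 2 each), and a two-sided exact permutation test over the 4 libraries gave p = 0.667. For the number of H3K4me3 peaks the ratio was 0.35 (0.49 and 0.21), also with an exact p = 0.667. With 2 libraries against 2 the exact test cannot go below p = 0.333. The H3K4me3 lists themselves differed in length. The share of each whole list's length that lay in domains was 0.522% for KO replicate 1, 0.968% for KO replicate 2, 0.350% for WT replicate 1 and 0.972% for WT replicate 2, so that relative to the lists KO and WT were alike in replicate 2. The direction rested on single libraries, since the covered length gave −0.10 without KO replicate 2 and −0.54 without WT replicate 1, and the peak number gave −0.28 and −0.47.

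Islands were less often found by all libraries than H3K4me3 regions elsewhere. All 4 libraries listed 62 islands (19.3%), against 43.8% of all H3K4me3 regions, and only the replicate 2 libraries listed 108 (33.5%), against 10.8%. Replicate 1 of KO listed 33.5% of the islands and replicate 1 of WT 23.9%, against 61.8% and 46.1% of all regions. The replicate 2 libraries listed 89.4% (KO) and 77.0% (WT) of islands, against 94.0% and 71.5%. The peaks in domains also scored lower than their lists, with a median score of 784 against 1608 in KO replicate 2 and of 743 against 3100 in WT replicate 2.

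Islands of the merged lists were most frequent in the central part of domains. By midpoint, 166 of the 322 lay in the central 40% of a domain's length, 102 farther out, 31 in the outermost 10% at either end and 23 beyond the edge. The H3K4me3 profile of KO replicate 2 reached 8.20% in the 12 inner bins and 4.06% in the 8 outer bins, and that of WT replicate 2 reached 7.18% and 3.59%. In KO replicate 1 it was 2.57% and 1.65%, and in WT replicate 1 it was 1.29% and 0.911%. The left and right flanks of WT replicate 1 had 1.61% and 1.63%, more than its inner bins. Those of KO replicate 1 had 1.96% and 2.02%, between its outer and inner bins. In both replicate 2 libraries the flanks were lower than the outer bins.

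Bases under H3K4me3 carried H3K27me3 about as often as the rest of the same domains. Of the island bases of a library, the share that was also under that library's H3K27me3 peaks was 5.41% for KO replicate 1, 63.9% for KO replicate 2, 53.1% for WT replicate 1 and 97.0% for WT replicate 2. The rest of these domains was covered to 7.34%, 63.2%, 43.9% and 95.6%. Of the gaps between H3K27me3 peaks, 11 of 95 held an H3K4me3 peak of the same library in KO replicate 1, 81 of 753 in KO replicate 2, 22 of 659 in WT replicate 1 and 0 of 167 in WT replicate 2. Most breaks in the domains held no island, but H3K4me3 covered little of the H3K27me3 peaks either. It covered 3.65% of gap length and 3.01% of peak length in KO replicate 1, and 6.00% and 6.44% in KO replicate 2. The shares were 1.40% and 1.72% in WT replicate 1, and 0% and 5.51% in WT replicate 2.

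Domains were also sorted by which replicate 2 libraries had H3K4me3 in them. Both had it in 178 domains, KO alone in 34, WT alone in 18 and neither in 260. H3K27me3 cover in KO replicate 2 was 64.6%, 56.9%, 37.6% and 65.4% of these 4 classes in that order. The corresponding shares in WT replicate 2 were 95.4%, 98.7%, 99.4% and 91.7%, and in WT replicate 1 they were 43.4%, 44.0%, 36.9% and 24.0%. KO replicate 2 thus had its lowest H3K27me3 cover in the 18 domains where WT alone listed H3K4me3, and not in the 34 where KO alone did. Several of the 18 lay on chromosome 9, where KO replicate 2 covered 22.2% of the domain length on that chromosome. The classes were not compared within chromosomes, so their order is not read as a relation between the marks.

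The largest number of islands in a domain was 4, reached in 4 domains. In chr2:9801237-9820317, H3K4me3 peaks numbered 1 in KO replicate 1, 3 in KO replicate 2, 1 in WT replicate 1 and 2 in WT replicate 2. In chr2:105497230-105526865 they numbered 0, 4, 1 and 2, in chr17:36291193-36305769 they numbered 1, 3, 1 and 3, and in chr19:45295440-45320966 they numbered 1, 4, 0 and 3. WT replicate 2 covered these 4 domains with 19081, 28688, 14577 and 25527 bp of H3K27me3, and KO replicate 2 with 6294, 23753, 11853 and 21236 bp. The fifth by rank, chr2:38188099-38217146, had 3 islands, and KO replicate 2 and WT replicate 2 had 2 and 3 peaks in it.

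In the H3K4me3 difference lists, islands were called KO-higher no more often than H3K4me3 regions at large, and WT-higher somewhat more often in replicate 2. The KO-higher calls took in 47 of 322 islands in replicate 1 (14.6%, against 21% of all H3K4me3 regions), 75 in replicate 2 (23.3%, against 24.1%) and 30 in both (9.32%, against 11%). The WT-higher calls took in 23 islands in replicate 1 (7.14%, against 6.63%), 42 in replicate 2 (13%, against 4.95%) and 8 in both (2.48%, against 1.05%). The share that was WT-higher in both rests on 8 islands in 7 domains, with a 95% Wilson interval of 1.26% to 4.83%. This interval covers counting error only and treats islands as independent, so it is no test against all regions. Islands were also admitted through domains outlined mostly by WT replicate 2. Raising the minimum score to 160 left 14 KO-higher and 4 WT-higher islands.

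The 30 KO-higher islands lay in 28 domains. H3K27me3 covered 4.59% of these domains in KO replicate 1, 53.0% in KO replicate 2, 48.7% in WT replicate 1 and 99.8% in WT replicate 2, and 20 of them were H3K27me3 WT-higher in both replicates. The 8 WT-higher islands lay in 7 domains, covered to 5.32%, 62.0%, 39.5% and 82.8%, of which 6 were H3K27me3 WT-higher in both. Over all 490 domains, 50.6% were H3K27me3 WT-higher in both, so a WT-higher call was common whichever way H3K4me3 was called.

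The domain chr12:58633922-58654836 (20915 bp) held 2 KO-higher islands. H3K27me3 covered 0 bp in both KO libraries, while WT replicate 1 covered 4145 bp and WT replicate 2 covered 20915 bp. H3K4me3 covered 7314 bp (KO replicate 1), 8201 bp (KO replicate 2), 0 bp (WT replicate 1) and 4464 bp (WT replicate 2). The genotypes did not overlap for either mark in this domain, with H3K4me3 the longer in KO and H3K27me3 the longer in WT. This domain and those named below for KO-higher or WT-higher islands were chosen on H3K4me3 calls. A separation of their H3K4me3 lengths is favoured by that choice.

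In chr3:127326697-127341608 (14912 bp), also with 2 such islands, H3K4me3 covered 3619, 4812, 0 and 3948 bp in KO replicates 1 and 2 and WT replicates 1 and 2. H3K27me3 covered 5019, 13137, 12176 and 14891 bp. The KO replicate 2 cover was close to that of WT replicate 2 here, so a KO-higher island did not always come with a bare domain. In chr16:94077254-94104962 (27709 bp), by contrast, both KO libraries had no H3K27me3 peak, against 18042 and 27709 bp in WT. Where 2 lengths are given for a genotype, replicate 1 comes first. H3K4me3 covered 1287 and 1942 bp in the KO lists and 0 and 835 bp in the WT lists.

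In chr11:97389023-97425020 (35998 bp), H3K4me3 was listed in KO with 1027 and 1989 bp and in neither WT library. H3K27me3 covered 4808 and 20628 bp in the KO lists and 15635 and 35998 bp in the WT lists. In chr2:31486975-31513548 (26574 bp), H3K4me3 covered 1055 and 1594 bp in KO and was again listed in neither WT library. H3K27me3 covered 3411 and 23446 bp in the KO lists and 13409 and 26574 bp in the WT lists, so that KO replicate 2 was nearly full.

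Among the domains with WT-higher islands, chr15:102725298-102751380 had 2. The island chr15:102739848-102741817 was covered for 0 bp by KO replicate 1, 1201 bp by KO replicate 2, 775 bp by WT replicate 1 and 1970 bp by WT replicate 2. The island chr15:102750192-102754530, which crosses the domain's edge, was covered for 1474, 2424, 3060 and 4339 bp. In the latter both WT libraries exceeded both KO libraries, and in the former the genotypes overlapped.

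In the other 4 named domains with WT-higher islands, WT-higher H3K27me3 peaks were called in both replicates. In chr13:40817608-40840656, H3K27me3 covered 0 and 10399 bp in the KO lists and 12958 and 23049 bp in the WT lists, and H3K4me3 covered 1130 and 4807 bp in the KO lists and 7023 and 4247 bp in the WT lists. In chr17:86076450-86093849, H3K4me3 was listed in neither KO library and over 1595 and 971 bp in WT, and H3K27me3 covered 0 and 2996 bp in the KO lists and 13064 and 17400 bp in the WT lists. Both marks were thus the longer in WT in the latter domain.

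The domain chr4:115604756-115621679 also had no H3K4me3 in KO, against 605 and 1141 bp in the WT lists. Its H3K27me3 cover was 0 and 8855 bp in the KO lists and 8479 and 16924 bp in the WT lists. In chr3:30400544-30417728, H3K4me3 covered 2670 and 3005 bp in the KO lists and 3714 and 4022 bp in the WT lists. H3K27me3 covered 1126 and 10828 bp of that domain in the KO lists and 6774 and 17185 bp in the WT lists. H3K4me3 did not overlap between genotypes in these 2 domains, which their choice by WT-higher H3K4me3 calls favours.

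H3K36me3 was nearly absent from the domains, as it was from H3K27me3 regions in general. KO replicate 1 had 4 H3K36me3 peaks in 3 domains, KO replicate 2 had 5 in 4, and both WT libraries had 0, although each H3K36me3 list held 33028 to 37562 peaks. For 0 of 490 domains the 95% Wilson interval reached 0.778%. Of all 23597 H3K27me3 regions, 14 met a KO replicate 1 peak of H3K36me3, 17 a KO replicate 2 peak, 17 a WT replicate 1 peak and 48 a WT replicate 2 peak. The peaks formed 6 merged regions in 5 domains. Only KO libraries listed them, which favours KO-higher calls by construction, so nothing is read from the calls. Of the 6, KO-higher difference peaks met 3 in replicate 1 (4.35% of all H3K36me3 regions), 5 in replicate 2 (2.37%) and 2 in both (0.688%), and WT-higher peaks met 0 in replicate 1 (5.27%), 0 in replicate 2 (8.5%) and 0 in both (1.22%).

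The 5 domains with H3K36me3 were named after their values were seen. In chr6:49153904-49180352 (26449 bp), H3K36me3 covered 2837 bp in KO replicate 1 and 4339 bp in KO replicate 2. H3K4me3 covered 5354 and 11211 bp there in the KO lists and 0 and 1836 bp in the WT lists. In chr12:58633922-58654836, the domain with 2 KO-higher islands described above, H3K36me3 covered 2591 and 2008 bp in KO. These 2 domains had H3K36me3 in both KO libraries.

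The other 3 had H3K36me3 in a single KO library. KO replicate 1 alone listed 1710 bp in chr6:127097765-127111925, and KO replicate 2 alone listed 2143 bp in chr11:95856436-95875642 and 1007 bp in chr5:116159327-116176474. H3K27me3 peaks of KO replicate 2 covered 10830 of 14161 bp, 11113 of 19207 bp and 0 of 17148 bp in these 3. H3K4me3 was longer in KO than in WT in the first 2 of them and was not listed in the third.

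The median distance from a domain to the nearest H3K36me3 peak was 66.4 kb in KO replicate 1, 60.05 kb in KO replicate 2, 62.8 kb in WT replicate 1 and 52.0 kb in WT replicate 2. A peak lay in or within 10 kb of 42 domains in KO replicate 1, 49 in KO replicate 2, 47 in WT replicate 1 and 59 in WT replicate 2, or 8.57% to 12% of them. For H3K27me3 regions of 5 to 10 kb these shares ranged from 7.32% to 12.4%, and for all regions from 4.15% to 7.57%. Over domains and their 10 kb flanks, H3K36me3 covered 151176 and 163376 bp in the KO lists and 162098 and 265199 bp in the WT lists. The mean log2 ratio was −0.40, with −0.10 in replicate 1 and −0.70 in replicate 2. Standard deviations were 0.079 in KO and 0.50 in WT (n = 2 each), and the two-sided exact permutation test gave p = 0.667. Without WT replicate 2 the ratio was 0.021.

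Wide domains were unevenly spread along the genome. Chromosome 19 held 46 domains (9.39%) on 2.48% of the span analysed, or 7.50 per 10 Mb, against 1.98 over chromosomes 1 to 19. Chromosome 4 held the most, 59 (3.79 per 10 Mb), followed in density by chromosome 11 with 3.20 and chromosome 15 with 3.09. Chromosome 12 held 3 domains (0.249 per 10 Mb). Chromosome 19 was also rich in wide regions relative to all its H3K27me3 regions, 4.22% of which were domains, against 2.08% overall and 0.609% on chromosome 12. Span was counted to the last peak of any list, as chromosome lengths were not used here.

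Some domains lay in groups, and most had no other within 100 kb. The distance to the nearest other domain had a median of 234.9 kb (interquartile range 38.1 to 1462). Another domain lay within 10 kb of 73 domains (14.9%), within 100 kb of 182 (37.1%, 95% Wilson interval 33.0 to 41.5) and within 1 Mb of 339 (69.2%). For H3K27me3 regions of 5 to 10 kb, a class with more members, the share within 100 kb was 53.3% and the median distance 77.6 kb. Joining domains up to 100 kb apart gave 72 groups of 2 or more, 52 of which were pairs, and left 308 domains on their own.

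The largest group, chr19:44668792-44916530, had 8 domains that filled 73.7% of 247.7 kb, with gaps of 0.017 to 29.4 kb. H3K27me3 covered 4.47% of its domains in KO replicate 1, 42.6% in KO replicate 2, 35.8% in WT replicate 1 and 100% in WT replicate 2. It held 2 H3K4me3 islands and 2 of the 10 widest domains. The next, chr11:96349315-96509872, had 6 domains over 51.5% of 160.6 kb and no island, and was covered to 1.03%, 87.5%, 11.9% and 99.0%. KO replicate 2 thus covered a larger share of this group than of the first, and WT replicate 1 a smaller one.

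The groups chr4:116967496-117198228 and chr19:45198678-45414709 came next, both with 5 domains. The former filled 38.2% of 230.7 kb, held 3 islands and was covered to 3.34%, 66.2%, 27.5% and 99.4%. The latter filled 44.0% of 216.0 kb, held 5 islands and was covered to 6.98%, 59.2%, 49.9% and 99.5%. Grouped domains were much like solitary ones in cover. The 182 domains with a neighbour within 100 kb were covered to 4.44%, 66.4%, 32.5% and 93.2%, and the 308 others to 3.36%, 61.4%, 34.3% and 94.5%. Median widths were 14116.5 and 13320 bp. Islands were present in 39.0% of the former and 52.3% of the latter.

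The balance between the replicate 2 libraries varied by chromosome. The ratio of covered domain length in KO replicate 2 to that in WT replicate 2 was lowest on chromosome 9 (0.223), followed by chromosome 12 (0.271), chromosome 14 (0.316) and chromosome 16 (0.349). It was highest on chromosome 6 (1.07) and chromosome 15 (1.06), with a median of 0.619 over 19 chromosomes. On chromosome 9, KO replicate 2 covered more than WT replicate 2 in 0 of 26 domains, and on chromosome 6 in 21 of 35. The total over all chromosomes was 0.674, and without chromosome 9 it was 0.701.

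Chromosomes with a low ratio in replicate 2 also had a low one in replicate 1. Across the 19 chromosomes Pearson's r between both ratios was 0.85, from separate libraries but over the same domains, and chromosome 9 was the lowest in both, with 0.00356 in replicate 1. The latter value rests on 1 KO replicate 1 peak of 657 bp, in chr9:37256613-37270503. KO replicate 1 had 235 peaks in all domains together, so the replicate 1 ratios of single chromosomes rest on few peaks. The replicate 2 ratio in domains followed that in H3K27me3 regions under 10 kb (r = 0.78, from the same 2 libraries), where chromosome 9 had 0.0918 and chromosome 6 had 2.07. With the replicate 2 ratio of the whole H3K4me3 lists r was 0.19, and with that of the H3K36me3 lists it was 0.34. These values describe the lists and carry no test.

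Chromosome 9 was the lowest of the 19 in all 3 marks. The KO to WT ratio of covered length in replicate 2 was 0.996 there for H3K4me3, against a range of 1.14 to 1.31 on the other chromosomes. For H3K36me3 it was 0.349, against 0.526 to 0.743. Without chromosome 9 the correlation of the domain ratio with the H3K4me3 ratio was −0.14 and that with the H3K36me3 ratio 0.075, while that between replicates was 0.84. Whether the number of copies of the chromosome differed between the lines was not tested.

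**Figure D5:**
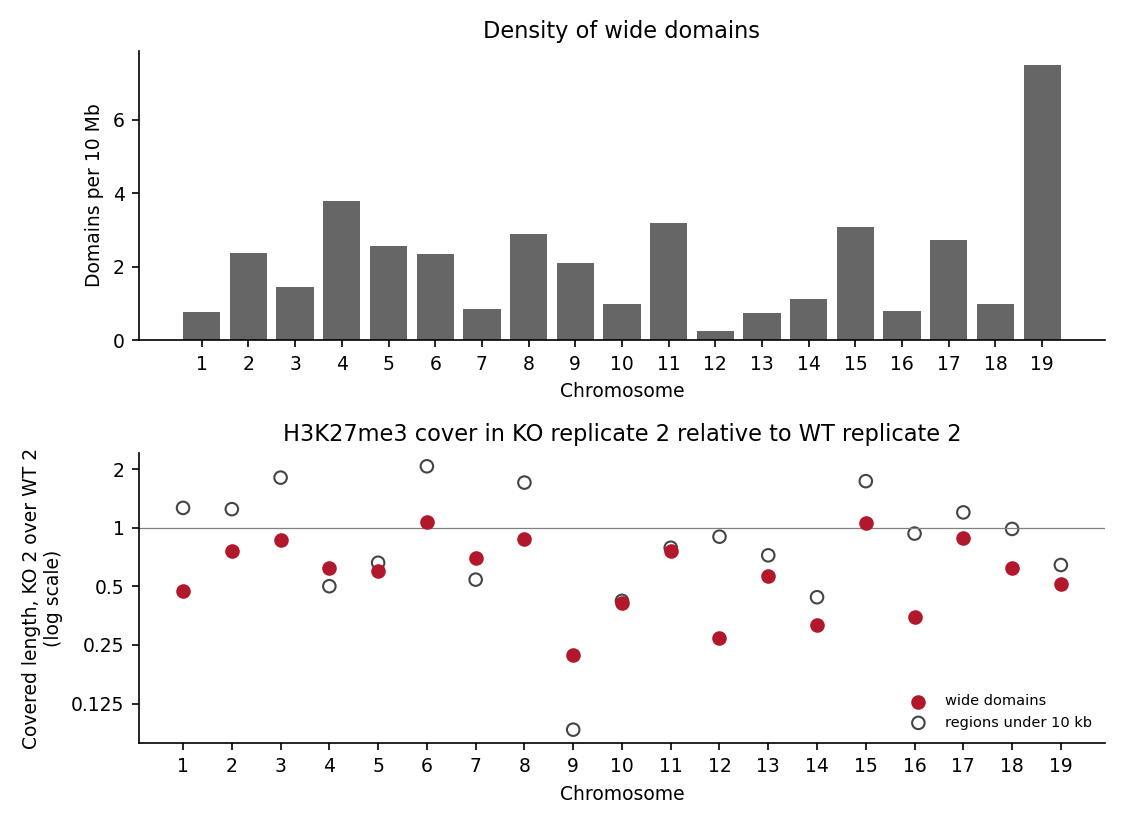
Upper panel, wide domains per 10 Mb on each chromosome (bars from 0). Lower panel, H3K27me3 covered length in KO replicate 2 over that in WT replicate 2 (log scale) in wide domains (filled) and in regions under 10 kb (open), with chromosome 19 densest above and chromosome 9 lowest below in both classes.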

How the data were processed

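Peaks of H3K27me3, H3K4me3 and H3K36me3 were analysed in 12 ChIP-seq libraries, 2 per mark and genotype, grouped and numbered by their titles. The 4 whole-cell extract samples were not analysed here. The submitters' processing notes name Bowtie 0.12.7, MACS (no version) and build mm9. There were 24 deposited peak lists, 2 per library, each peak carrying the authors' score of at least 80, a unit with no stated formula. Scores served as minimums (160 and 3100, the value at which many of the strongest peaks pile up) and as medians per list, and score levels were not tested between lists. Peak calling applies a threshold, so depth and enrichment of a library, both unknown, affect how many and how wide its peaks are.

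Lists were merged, intersected (at least 1 bp) and summed with Python 3.11.15 and numpy 2.4.6, which also ran the exact permutation tests. Wilson intervals used scipy 1.17.1. Overlap code was checked on simulated lists. Regions named were the 10 widest, the 3 on either side of the width limit, the 5 richest in islands, the 5 lowest and 5 highest in the replicate 2 ratio, the 3 largest groups, and up to 5 per direction with recurrent H3K4me3 calls. The domains, lists and rules were chosen with earlier results of these data known. Genes were not assigned, because an mm9 annotation was not used here. Alternatives were another width limit, joining distance, score minimum or neighbour distance, a replicate block, and leaving out each library.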

Additional observations from a re-analysis of the deposited data

Results flagged for a closer look

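Chromosome X lay outside the selection of domains but held 3 merged H3K27me3 regions of 10 kb or more among 419, spanning 44.3 kb. KO replicate 1 covered 1.42% of them, KO replicate 2 covered 8.17%, WT replicate 1 covered 23.5% and WT replicate 2 covered 100%. They are noted because they are a signal in data that the comparisons did not use.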

How the results depend on the processing

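Of 86 alternative values, 9 changed sign, 16 counts or shares moved (counts beyond 1.5 times), and 61 did neither, although log2 ratios among the latter could change in size, as the ranges below show. The 61 include the block alternatives, whose ratios equal the main ones by construction. H3K4me3 and H3K36me3 ratios could only change by sign, since the exact permutation test cannot go below p = 0.333. The 61 are thus no measure of stability. The number of domains was 827 at 8 kb, 85 at 20 kb and 882 when peaks up to 1 kb apart were joined, and 141 to 490 with a library left out (141 without WT replicate 2). Islands KO-higher in both replicates numbered 11 at 20 kb and 14 with a score of at least 160. Islands WT-higher in both numbered 16 at 8 kb, 3 at 20 kb, 16 with joining and 4 with the higher score. The share of domains with another within 100 kb was 42.4% at 8 kb, 14.1% at 20 kb and 46.7% with joining. It was 30.8% within 50 kb, 69.2% within 1 Mb, and 32.6% to 37.1% with a library left out.

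On the log2 scale, leaving out a library gave −4.02 to 0.17 for the covered share, −0.41 to 0.65 for peaks per listed domain, −0.54 to 1.44 for H3K4me3 length, −0.47 to 1.2 for H3K4me3 peak number and −0.75 to 0.021 for H3K36me3. Peaks per listed domain gave −0.16 with joining, and H3K36me3 gave 0.14 at 20 kb. H3K36me3 without flanks gave no ratio, since both WT libraries were at 0. The cause of these changes was not tested.

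With the replicate number as a block, the H3K4me3 values (0.60 and 0.35) and the H3K36me3 value (−0.40) were the same and the exact p was 0.5, the smallest it allows. The labels tie same-numbered libraries by number alone, and only 2 pairs exist. H3K27me3 cover of same-numbered libraries deviated from the genotype means with a correlation of −0.80 over all 23597 regions and −0.043 over domains. The replicate 2 lists held most of the peaks that made the regions. A region listed by only 1 of these 2 lists pulls the correlation down whether or not the numbers are paired. These values therefore cannot decide the pairing, and the main tests did not use it. Crossing the numbers, an alternative chosen after seeing the data, gave an exact p of 1. Peak lists without read depth limit all lengths and counts to what passed each library's threshold.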
